A study of Mus musculus with 16 samples.

Results

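The CREB, CRTC and SIK genes of the mouse dorsal hippocampus were followed through caffeine intake and spatial learning: the transcription factors Creb1, Crem and Atf1, the coactivators Crtc1, Crtc2 and Crtc3, and the kinases Sik1, Sik2 and Sik3. These 9 of the 35328 genes in the count table were chosen by symbol, and all 9 passed the filter on low counts. RNA-Seq was performed on 16 male C57BL6/J mice in 4 groups of 4, which shared a treatment start at 8 to 9 weeks of age and a treatment of 2 weeks. The home cage water and home cage caffeine groups rested in their cages and drank water or caffeine at 0.3 g/L. The learning water and learning caffeine groups received the same drinks and were trained in the Morris water maze. In this task a mouse learns the place of a hidden platform. They had 2 habituation days in the pool, then 3 training days of 4 trials each, and were dissected 1 hour after the last trial. None of the 4 groups swam without training. In every learning comparison below, learning therefore cannot be told apart from swimming and handling. Levels are given in CPM, counts scaled to the TMM-adjusted size of each library. A gene was called when edgeR's quasi-likelihood test over the 16 libraries gave a Benjamini-Hochberg adjusted p under 0.1.

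Library totals ranged from 23078094 to 41841785 counts in the home cage groups and from 30861776 to 49949281 in the learning groups. Summed CPM of 6 hippocampal principal cell markers (1032 to 1452) and of 6 neuron markers (5604 to 6748) was present in all groups, and 1 hippocampal principal cell marker was called lower after learning averaged over treatments. That of 8 choroid plexus markers ranged from 307 to 2349 in home cage water and 190 to 502 in home cage caffeine. It was 163 to 434 in learning water and 115 to 203 in learning caffeine. Averaged over treatments, 7 of the 8 were called lower after learning. So were 4 of 7 microglia, 1 of 6 astrocyte and 1 of 6 endothelial markers, against 6.71% of all genes tested. Under water 4 choroid plexus and 0 microglia markers were called lower, against 0.331% of all genes. Under caffeine these were 0 and 3, against 2.13%. For caffeine against water in the home cage, 0 of the 8 choroid plexus markers had a log2 fold change above 0 (median -1.67), and 0 were called. Summed CPM of 6 oligodendrocyte markers was 11735 in learning water replicate 24, against 4897 to 8805 in the other 15 libraries, and that library had the lowest Sik1 and Sik2 of its group. The part of these cells in the results below was not tested. In bulk tissue, fewer cells of a type and less RNA per cell cannot be told apart.

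CREB family factors bind the cAMP response element as dimers and switch on genes when calcium or cAMP signals reach the nucleus. CRTC proteins are their coactivators: they are held in the cytoplasm while salt-inducible kinases (SIKs) keep them phosphorylated and bound to 14-3-3 proteins, and they enter the nucleus once calcineurin removes the phosphates. Protein kinase A inhibits the SIKs, and Sik1 is itself a CREB target in several tissues. In hippocampal neurons the pathway is known for its place in long-term memory. All of these steps act on proteins and their location, whereas the values here are mRNA levels.

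On GRCm38, Sik1 lies on chromosome 17 (31844250 to 31855804, minus strand), Sik2 on chromosome 9 (50892801 to 51009073, minus strand), Sik3 also on chromosome 9 (46012820 to 46224194, plus strand) and Creb1 on chromosome 1 (64532645 to 64604548, plus strand). Crtc1 is on chromosome 8 (70382355 to 70439579, minus strand), Crtc2 on chromosome 3 (90254163 to 90264125, plus strand), Crtc3 on chromosome 7 (80586627 to 80688877, minus strand) and Atf1 on chromosome 15 (100227819 to 100261244, plus strand). RefSeq promoter windows of build GRCm38.p6, 250 bases before to 25 after the start, were at hand for 6 of the 9 genes, Creb1, Atf1, Crtc1, Crtc3, Sik2 and Sik3. The letters searched on both strands were the full cAMP response element TGACGTCA and its half-site, TGACG or CGTCA, which every full element also contains. None of the 6 windows held the full element, against 1.73% of 32851 promoters of the same length. At least 1 half-site was in 3 of them, Sik2, Sik3 and Atf1, against 19.7% of all promoters. The windows of Sik2, Sik3 and Creb1 follow because Sik2 and Creb1 were called higher after learning and Sik3 was not. Capitals mark the half-sites.
Sik2, chr9:51009049-51009323, minus strand: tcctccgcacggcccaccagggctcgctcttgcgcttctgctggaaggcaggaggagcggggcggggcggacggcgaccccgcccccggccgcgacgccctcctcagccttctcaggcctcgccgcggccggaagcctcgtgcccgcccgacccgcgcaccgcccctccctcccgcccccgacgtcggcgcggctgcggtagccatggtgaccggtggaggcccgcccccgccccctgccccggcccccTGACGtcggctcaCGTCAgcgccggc
Sik3, chr9:46012570-46012844, plus strand: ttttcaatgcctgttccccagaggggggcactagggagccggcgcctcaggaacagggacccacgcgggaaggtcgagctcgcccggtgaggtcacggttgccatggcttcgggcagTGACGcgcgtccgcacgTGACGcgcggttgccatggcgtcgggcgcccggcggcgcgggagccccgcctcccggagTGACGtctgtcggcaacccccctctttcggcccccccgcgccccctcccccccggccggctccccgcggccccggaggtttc
Creb1, chr1:64532554-64532828, plus strand: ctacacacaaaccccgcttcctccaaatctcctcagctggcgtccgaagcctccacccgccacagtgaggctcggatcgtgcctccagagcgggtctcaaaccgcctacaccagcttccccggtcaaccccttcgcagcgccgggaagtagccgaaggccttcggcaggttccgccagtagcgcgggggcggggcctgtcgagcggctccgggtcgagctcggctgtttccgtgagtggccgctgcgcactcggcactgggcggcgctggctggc

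The Sik2 window held 2 half-sites, beginning 1 base before and 12 bases after the start. In the Sik3 window there were 3, beginning 133, 116 and 57 bases before it. At least 2 half-sites were found in 4.59% and at least 3 in 0.901% of all promoters. No half-site was found in the windows of Creb1, Crtc1 and Crtc3. RefSeq starts can differ from the gene starts given above. The Creb1 window, from 64532554 to 64532828, lies mostly inside the gene as positioned there, from 64532645. Creb1 has 10 annotated transcript starts, of which this window covers the RefSeq start. A match of letters is a description of the window, and no binding was measured here.

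Per length, Crtc1 had the highest level of the 9 genes. Its mean over the 16 libraries was 28.9 ± 1.72 CPM per kb of exon (SD, n = 16). Sik3, the most abundant kinase, followed with 15.4 ± 0.753, then Crtc2 with 6.92 ± 0.720 and Creb1 with 4.96 ± 0.574. Each of these was above the next in 16 of 16 libraries. Crem (2.57 ± 0.183), Sik2 (2.55 ± 0.466) and Crtc3 (2.52 ± 0.115) did not separate on this scale: Crem was above Sik2 in 7 and Sik2 above Crtc3 in 9 of the 16 libraries. Atf1 (2.08 ± 0.197) was below Crtc3 in all 16 and above Sik1 (1.54 ± 0.438) in 12. These SDs run over all groups, so those of Sik1 and Sik2 include their difference between conditions. Mean Sik2 was 2.22 and 2.13 in home cage water and caffeine, below Crem at 2.47 and 2.48. In learning water and caffeine it was 2.86 and 2.99, above Crem at 2.55 and 2.75. The exonic length of all transcripts of a gene was used for this scale, so a level depends on which of them the tissue uses.

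**Figure D1:**
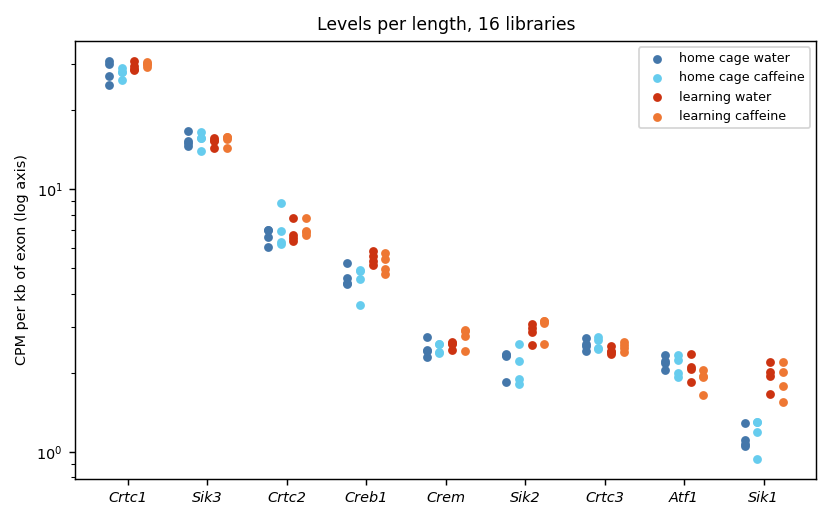
Level of each gene per kb of exon on a log axis, 1 point per library, coloured by group. Crtc1 lies above Sik3 and Sik3 above Crtc2 in every library, while the points of Crem, Sik2 and Crtc3 overlap and those of Sik1 fall into a lower home cage and a higher learning cloud.

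Sik1 and Sik2 were higher after learning, whereas the difference of the third kinase, Sik3, was near 0. Under water, 1 of the 9 genes was called, Sik1, and it was higher. That compares with 0.970% of the 17830 genes tested, or 0.639% called higher. Under caffeine 2 were called, Sik1 and Sik2, both higher, against 5.28% of all genes tested, or 3.16% called higher. Averaged over the treatments there were 3, Sik1, Sik2 and Creb1, all higher, against 14.5% of all genes tested, or 7.81% called higher. None of the 9 was called lower in these comparisons.

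Sik1 encodes the SIK whose mRNA is known to follow neuronal activity. It measured 6.63, 5.42, 5.48 and 5.67 CPM in the home cage water libraries and 8.54, 9.97, 11.3 and 10.3 CPM in the learning water libraries. In the home cage caffeine libraries it was 6.67, 6.12, 4.83 and 6.67 CPM, and in the learning caffeine libraries 7.94, 9.17, 10.4 and 11.3 CPM. All 8 learning libraries lay above all 8 home cage libraries. The rise was 0.79 on the log2 scale under water (SE 0.13, edgeR adjusted p = 0.00751) and 0.67 under caffeine (SE 0.13, edgeR adjusted p = 0.0108). That is 1.73-fold and 1.60-fold. Averaged over the treatments it was 0.73 (SE 0.09, adjusted p = 1.81e-04), and 22 of the 17830 genes had a smaller p. These values rest on 142 to 517 counts a library.

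Sik2 encodes a kinase that phosphorylates CRTC1 in neurons. Its home cage water libraries held 22.3, 22.05, 22.5 and 17.6 CPM and the learning water libraries 24.3, 27.2, 28.2 and 29.3 CPM. The home cage caffeine libraries held 18.1, 24.6, 21.1 and 17.3 CPM, and the learning caffeine libraries 30.0, 24.6, 30.1 and 29.5 CPM. Within each treatment the 2 groups did not overlap. Under caffeine the gap was very small, from home cage caffeine replicate 9 (24.56) to learning caffeine replicate 27 (24.58). The highest home cage caffeine library was also above the lowest learning water library (24.33). How many of all genes show groups without overlap was not counted, for this or the other genes described. Under caffeine the rise was 0.50 on the log2 scale, or 1.41-fold (SE 0.11, adjusted p = 0.0217). Under water the difference was 0.37 (SE 0.11) and was not called by edgeR, with an adjusted p of 0.159, though DESeq2's Wald test called it (adjusted p = 0.0623), as did edgeR when genes with 1 count or more in sum were kept. Averaged over the treatments Sik2 rose by 0.43 (SE 0.08, adjusted p = 0.00244).

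Sik2 shares 1429 exonic bases with Ppp2r1b, a subunit gene of protein phosphatase 2A on the opposite strand, named after its values were seen. The libraries were stranded, but the strand setting used in counting was not given in the sources used here. Ppp2r1b differed by 0.13 (SE 0.06, adjusted p = 0.437) under water and by 0.02 (SE 0.06, adjusted p = 0.920) under caffeine.

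Sik3, a kinase known for a role in sleep need, had 136 to 155 CPM in the home cage water group and 134 to 147 in the learning water group. In the caffeine groups it had 130.3 to 154 in the home cage and 134 to 148 after learning. The groups overlapped in both comparisons. Averaged over the treatments, the learning difference was -0.01 on the log2 scale, with a 95% interval from -0.10 to 0.07, so changes beyond those bounds fall outside the interval.

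**Figure D2:**
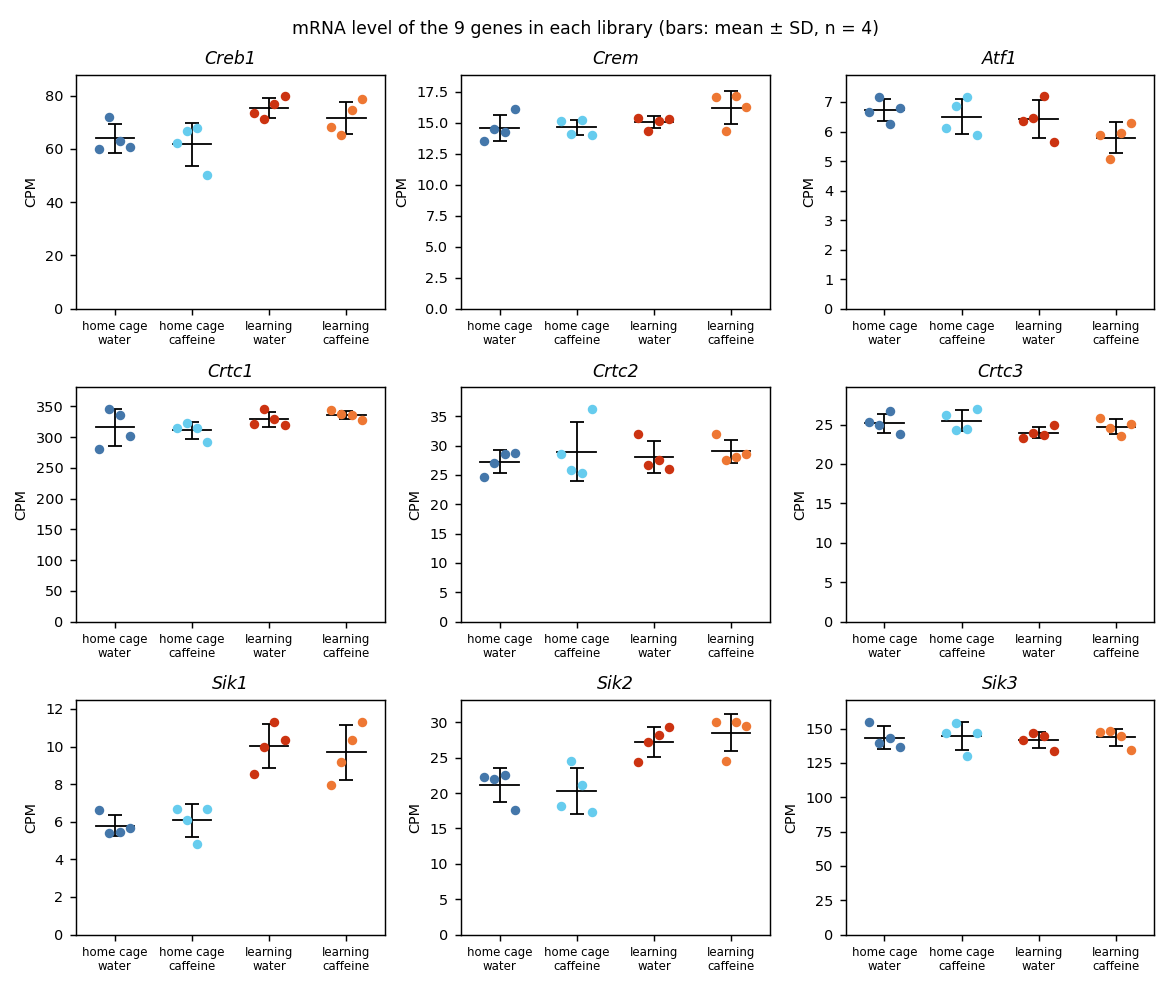
Level of the 9 genes in CPM in each of the 16 libraries, with the mean and SD of each group of 4 and every axis from 0. The 8 learning points of Sik1, from 7.94 to 11.3 CPM, lie above all home cage points, Sik2 shows a smaller step, and the remaining panels overlap between conditions.

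The learning response of neither kinase was shown to depend on caffeine. The response under caffeine minus that under water was -0.12 for Sik1 (95% interval -0.50 to 0.26) and 0.13 for Sik2 (-0.19 to 0.45), each with an adjusted p over 0.99. For this difference 0 of the 9 genes were called by edgeR and 0 by DESeq2, and 0% of all genes tested were called by edgeR. An unadjusted p under 0.05 was found for 0 of the 9 and for 648 of all 17830 genes tested. The intervals leave room for differences as large as the Sik2 response itself.

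Relative to Sik3 of the same library, Sik1 was higher after learning in all comparisons of a learning with a home cage library. The log2 ratio of Sik1 to Sik3 was -4.63 ± 0.0763 (SD, n = 4) in the home cage water group and -3.82 ± 0.179 in the learning water group. With caffeine it was -4.58 ± 0.148 in the home cage and -3.90 ± 0.276 after learning. The difference averaged 0.745, or 1.68-fold, with p = 4.08e-04 in a two-sided exact permutation test that exchanged the conditions within each treatment. This is the smallest p that its 4900 assignments can give, and it was 0.00245 after adjustment over the 6 ratios tested. For Sik1 relative to Sik2 the difference was 0.296, with an exact permutation p of 0.0367 that did not stay under 0.05 after adjustment (0.0551). It did so without home cage water replicate 20 (log2 difference 0.333) or learning caffeine replicate 22 (log2 difference 0.354). The same held without home cage caffeine replicate 2 (log2 difference 0.345) or 17 (log2 difference 0.356).

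Of the transcription factors, only Creb1 was called after learning in these fits. Creb1 encodes the main CREB protein, whose phosphorylation recruits acetyltransferases. The home cage water libraries had 60.0, 72.0, 63.1 and 60.7 CPM and the learning water libraries 73.4, 71.1, 76.7 and 79.9 CPM. The home cage caffeine libraries had 62.3, 66.9, 67.7 and 50.0 CPM, and the learning caffeine libraries 68.3, 65.4, 74.5 and 78.6 CPM. Single libraries overlapped in both treatments: home cage water replicate 8 was above learning water replicate 33, and learning caffeine replicate 27 was below home cage caffeine replicates 9 and 14. Averaged over the treatments Creb1 rose by 0.23 on the log2 scale, or 1.17-fold (SE 0.06, adjusted p = 0.0334). Within water the difference was 0.23 (adjusted p = 0.281) and within caffeine 0.22 (adjusted p = 0.191), neither called. Without home cage caffeine replicate 17 the value within caffeine was 0.13 (adjusted p = 0.432).

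The libraries differed in how levels moved with exonic length, which, summed over all transcripts of a gene, was 13742 bases for Creb1, 11182 for Crtc1, 9850 for Crtc3, 9539 for Sik2, 9318 for Sik3 and 3060 to 5895 for the other 4 members. Per doubling of exonic length, the level of a gene relative to its mean over libraries shifted by -0.055 to 0.035 on the log2 scale in the home cage water libraries, -0.10 to 0.0078 in home cage caffeine, -0.0068 to 0.074 in learning water and -0.010 to 0.048 in learning caffeine. With each library corrected for its trend with length and GC content, an alternative added after the data had been seen, the averaged rise of Creb1 was 0.14 (adjusted p = 0.0251). In the same fit Sik2 rose by 0.39 (adjusted p = 0.00208) and Sik1 by 0.74 (adjusted p = 1.58e-04). Home cage caffeine replicate 17, whose trend was the lowest, had the lowest Creb1 and Sik2 of all 16 libraries, the highest Crtc2 (36.3 CPM) and the highest share of mitochondrial counts (4.49%).

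Crem encodes both activators and the inducible repressor ICER, which starts at an internal promoter, and the gene-level counts add them up. It had 13.5 to 16.1 CPM in the home cage water group, 14.03 to 15.2 in home cage caffeine, 14.4 to 15.4 in learning water and 14.3 to 17.2 in learning caffeine. The averaged learning difference was 0.10 (SE 0.05, adjusted p = 0.254). Crem shares 472 exonic bases with Gm6225 on the opposite strand. Atf1, a close relative of Creb1, had 5.89 to 7.17 CPM in the home cage and 5.05 to 7.21 after learning, with an averaged difference of -0.12 (SE 0.07, adjusted p = 0.316). Neither gene was called in any comparison.

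The balance of Crem to Atf1 was higher after learning when averaged over the treatments, although neither gene was called. Its log2 ratio was 1.12 ± 0.117 and 1.17 ± 0.125 (SD, n = 4) in the home cage water and caffeine groups, and 1.24 ± 0.162 and 1.48 ± 0.0754 in the learning water and caffeine groups. The averaged rise of 0.217 gave an exact permutation p of 0.00694 (0.0208 adjusted over 6). Home cage and learning libraries overlapped, from 1.01 to 1.30 against 1.07 to 1.54. The ratio tests were not corrected for the trend with exonic length (5895 bases for Crem, 3060 for Atf1), and its part in them was not tested. With the length and GC correction, the averaged learning differences of the single genes were 0.064 for Crem and -0.095 for Atf1. Crem relative to Creb1 differed by -0.133, with an exact permutation p of 0.0686 (0.0823 adjusted over 6).

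The CRTC coactivators were not called in any comparison. Crtc1, the CRTC known for synapse-to-nucleus signalling in neurons, had 279.8 to 346 CPM in the home cage water group and 319 to 345 in the learning water group. In the home cage caffeine group it had 292 to 323 and in the learning caffeine group 327 to 343, so that the caffeine groups did not overlap. The learning difference was 0.06 under water (SE 0.06, adjusted p = 0.732), 0.11 under caffeine (SE 0.06, adjusted p = 0.313) and 0.09 averaged (SE 0.04, adjusted p = 0.212). Without home cage water replicate 8, which held the highest Crtc1 level (346 CPM), the averaged value was 0.12 with an adjusted p of 0.0668.

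Crtc2, the CRTC known for control of glucose production in the liver, had 24.7 to 28.8 CPM in the home cage water group and 26.0 to 32.0 in the learning water group, and its averaged difference was 0.02 (SE 0.07, adjusted p = 0.890). Crtc3, known from adipose tissue and pigment cells, had 23.8 to 26.7 CPM in home cage water and 23.3 to 24.9 in learning water, and its averaged difference was -0.06 (SE 0.04, adjusted p = 0.379). Relative to Crtc3, Crtc1 was higher by 0.144 after learning, with an exact permutation p of 0.0114 (0.0229 adjusted over 6). The libraries overlapped, from 3.43 to 3.80 in the home cage against 3.68 to 3.85. The call was lost without learning water replicate 33 (log2 difference 0.132). It was also lost without learning caffeine replicate 27 (log2 difference 0.142) or 30 (log2 difference 0.132). Relative to Crtc2 the difference was 0.0613, with an exact permutation p of 0.556.

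**Figure D3:**
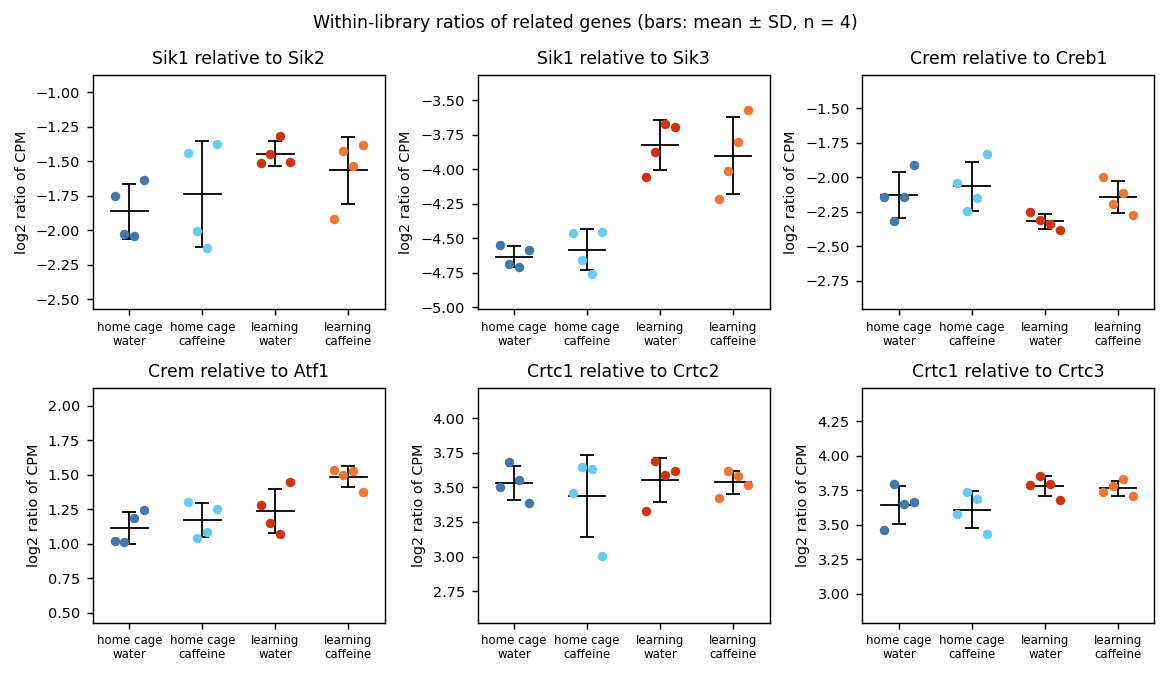
Log2 ratio of CPM of related genes in each library, with the mean and SD of each group of 4; every panel spans the same height but starts at a different value. The 8 learning points of Sik1 relative to Sik3, from -4.21 to -3.57, lie above the 8 home cage points, from -4.75 to -4.46, and the other 5 ratios overlap.

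Caffeine without a change of condition moved none of the 9 genes past the threshold. In the home cage 0 of 9 were called by edgeR and 0 by DESeq2, against 0% of all genes tested by edgeR. The mean Sik1 level was 5.80 ± 0.564 CPM with water and 6.07 ± 0.869 with caffeine, and that of Crtc1 316 ± 30.5 and 311 ± 13.5 (SD, n = 4). After learning the counts were again 0 of 9 by both tools and 0% of all genes by edgeR. Sik1 then measured 10.0 ± 1.16 CPM with water and 9.69 ± 1.46 with caffeine, and Crtc1 329 ± 11.7 and 336 ± 6.74. Averaged over the conditions, 0 of 9 and 0% of all genes were called as well. No member had an unadjusted p under 0.05 in these 3 comparisons. Of all 17830 genes tested, 636, 700 and 725 did, so few that 0 of 9 does not set the members apart. DESeq2 called 19, 6 and 16 genes. For Crtc1 in the home cage the 95% interval of the difference was -0.15 to 0.10 on the log2 scale, and for Sik1 it was -0.21 to 0.35.

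**Figure D4:**
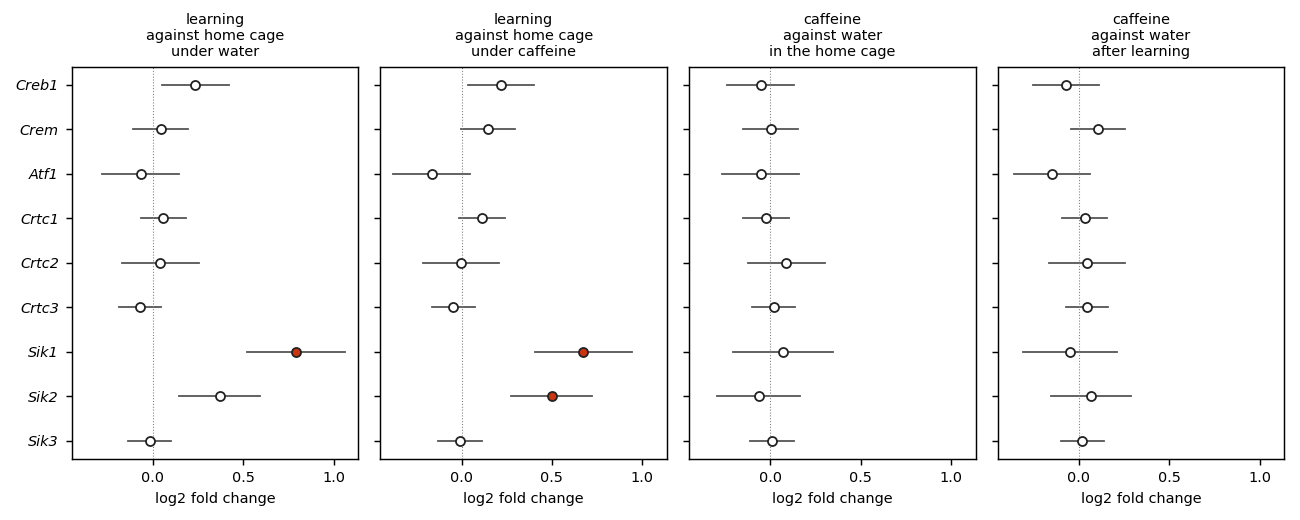
Log2 fold change of each gene with its 95% interval in 4 comparisons; filled points are called at an adjusted p under 0.1. Sik1 at 0.79 and 0.67 and Sik2 at 0.50 are filled in the learning panels, and all intervals in the caffeine panels include 0.

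The genes whose level followed these members most closely were ranked by Pearson's r over the 16 libraries among 13370 genes. This is a description, since the libraries share 4 group means and differ in depth and in their trend with exonic length. The part of that trend in the correlations was not tested. For Sik1 the closest genes were the clock gene Per1 (r = 0.948), the synaptic immediate early gene Arc (0.938) and the tyrosine phosphatase gene Ptpn1 (0.932). After removal of the group means these fell to 0.699, 0.722 and 0.657. For Sik2 they included Ubr2, a ubiquitin ligase gene (0.952), and Sh3bp5 (0.924), with 0.879 and 0.786 after removal of the means. For Creb1 they were Mon2 (0.973), Ints8, an Integrator subunit (0.969), and Arid2, of a chromatin remodelling complex (0.963), with 0.964, 0.964 and 0.949. Creb1 and Sik2 correlated with each other at 0.808, and at 0.637 within groups. Sik1 and Sik2 correlated at 0.744 overall and at 0.0160 within groups.

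Upstream, the genes for enzymes that make and carry the cAMP and calcium signals are read here beside the averaged learning comparison over all genes, in which 14.5% were called, 7.81% higher and 6.71% lower. Of 9 adenylyl cyclases tested, which make cAMP, none was called in the averaged learning comparison, and the smallest p was that of Adcy3 (0.09, SE 0.04, adjusted p = 0.150). Of 9 genes for protein kinase A subunits and inhibitors, 1 rose, the regulatory subunit Prkar2a, by 0.21 (SE 0.05, adjusted p = 0.00877). Its 8 learning libraries, 63.5 to 75.0 CPM, lay above the 8 home cage libraries, 50.5 to 63.3. None of 11 calcium/calmodulin kinases was called, with Camkk1 at the smallest p (0.13, SE 0.05, adjusted p = 0.114). Of 6 RSK and MSK kinases, which phosphorylate CREB downstream of ERK, 2 rose. Rps6ka3 rose by 0.19 (SE 0.06, adjusted p = 0.0585) and Rps6ka2 by 0.18 (SE 0.06, adjusted p = 0.0776). The home cage and learning libraries overlapped for both.

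Around the SIK-CRTC switch, against the same 14.5% of all genes called, none of 8 calcineurin genes and none of 7 14-3-3 genes was called. The smallest p values were those of Ppp3cc (-0.09, SE 0.05, adjusted p = 0.223) and Ywhag (0.08, SE 0.04, adjusted p = 0.260). Of 7 genes of the LKB1 complex, which activates SIKs, and of AMPK, 2 fell, where 6.71% of all genes were called lower: Cab39l by 0.22 on the log2 scale (SE 0.07, adjusted p = 0.0619) and Stk11, which encodes LKB1, by 0.14 (SE 0.05, adjusted p = 0.0837). Of 4 class IIa histone deacetylases, further SIK substrates, Hdac4 rose by 0.19 (SE 0.05, adjusted p = 0.0417). The home cage and learning libraries of Cab39l, Stk11 and Hdac4 overlapped.

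Of the pair of CREB-binding acetyltransferases, Ep300 rose by 0.28 (SE 0.06, adjusted p = 0.00690), with 51.4 to 66.8 CPM in the home cage and 67.7 to 82.7 after learning, and Crebbp had 0.10 (SE 0.05, adjusted p = 0.227). Among 16 genes listed as other CREB/ATF and related bZIP genes, 3 rose and 3 fell, against 7.81% and 6.71% of all genes. The stress-inducible repressor Atf3 rose by 0.83 (SE 0.16, adjusted p = 0.00448) and Nfil3 by 0.32 (SE 0.08, adjusted p = 0.0223). Atf3 was low, with group means from 0.914 CPM in home cage water to 2.06 CPM in learning water. Its rise was 1.15 under water (adjusted p = 0.0384) and 0.51 under caffeine (adjusted p = 0.218, not called). The difference between these 2 responses was not called. Creb5 fell by 0.52 (SE 0.17, adjusted p = 0.0659) and Atf5 by 0.26 (SE 0.08, adjusted p = 0.0591). The home cage and learning libraries of these 4 genes overlapped.

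Most of the listed CREB target genes stood higher after learning. Of 35 tested, 20 rose and 1 fell in the averaged comparison, and 30 had a value above 0. Their median log2 fold change was 0.40, against -0.01 over all 17830 genes tested, of which 14.5% were called. Most of those that rose are immediate early genes, which other factors also control, and Atf3 and Nfil3 stand in the list above as well. The list was chosen with earlier results of these data known, so its counts are a description and no test of CREB targets. Egr2, a zinc finger factor of the early response, rose by 3.45 (SE 0.19, adjusted p = 1.70e-08), from 0.444 ± 0.217 CPM (SD, n = 4) in home cage water and 0.715 ± 0.0966 in home cage caffeine to 5.59 ± 1.27 and 7.01 ± 1.78. Fos rose by 1.98 (SE 0.14, adjusted p = 2.01e-07), Egr1 by 1.16 (SE 0.07, adjusted p = 9.51e-08) and Fosb by 1.11 (SE 0.08, adjusted p = 2.01e-07). Penk, the proenkephalin gene, fell by 0.22 (SE 0.07, adjusted p = 0.0587). Under water 16 targets were called higher and 0 lower, against 0.639% of all genes called higher, and under caffeine 14 higher and 1 lower, against 3.16% of all genes called higher.

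**Figure D5:**
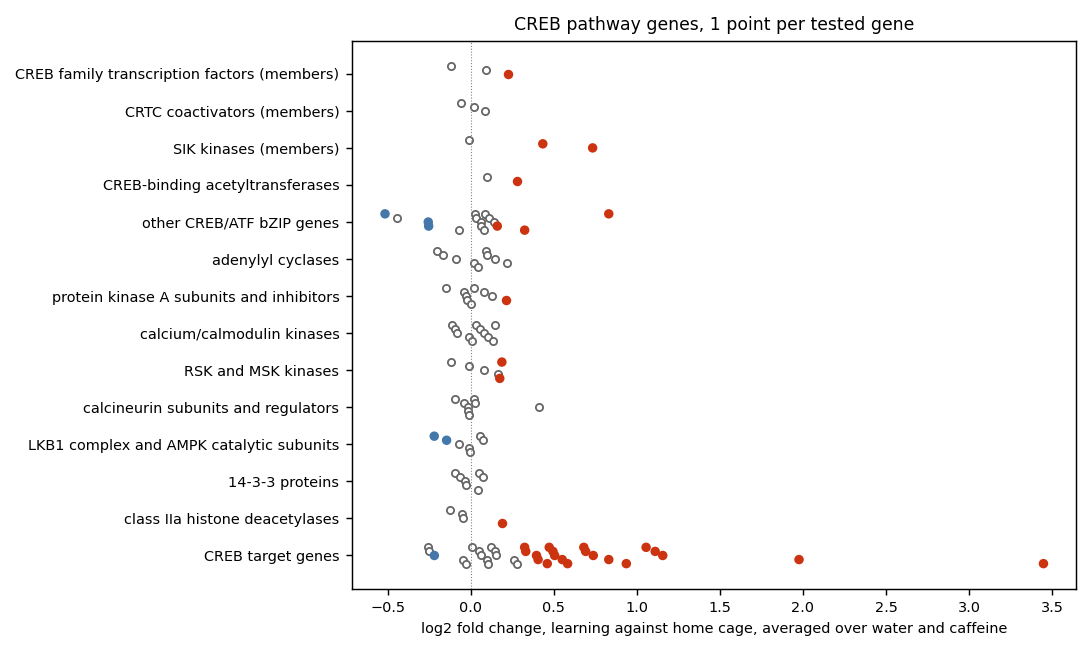
Log2 fold change after learning, averaged over water and caffeine, of each tested gene of the members and 11 pathway lists; red points were called higher, blue lower, open not called, and vertical offsets only separate points. The red points to the right in the CREB target row end with Fos at 1.98 and Egr2 at 3.45, whereas the rows of cyclases, calcium/calmodulin kinases, calcineurin and 14-3-3 genes hold open points only.

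Among these targets, Junb (0.74), Nr4a1 (0.69) and Homer1 (0.68), all 3 named after their values were seen, had averaged learning values close to the 0.73 of Sik1. In resting mice, caffeine against water gave the 35 targets a median of 0.14, with 26 above 0 and 0 called by edgeR, where 8676 of all 17830 genes were above 0. After learning the same contrast gave a median of 0.04 with 21 of 35 above 0, where 8581 of all genes were above 0, and 0 were called. The targets were measured in the same mice, so these counts above 0 are not counts of independent observations. In resting mice the members had -0.05 (Creb1), 0.00 (Crem), -0.05 (Atf1), -0.02 (Crtc1), 0.09 (Crtc2), 0.02 (Crtc3), 0.07 (Sik1), -0.06 (Sik2) and 0.01 (Sik3).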

How the data were processed

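RNA-Seq of 16 dorsal hippocampi was analysed from the deposited table. The authors made stranded poly(A) libraries, read 50 bases single-end, aligned them with STAR and Bowtie 2 to the mm10 genome, and counted uniquely aligned reads per Ensembl release 90 gene with HTSeq 0.6.1p1 in union mode. The deposited values are raw counts, and they tested them with DESeq2. Groups came from the sample titles, with 4 mice a group. The edgeR p-values set a difference against the spread between mice within groups, estimated over all 16 libraries.

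From these counts, R 4.3.3 with edgeR 4.0.16 was used: TMM, filterByExpr (17830 of 35328 genes), group means fitted over all 16 libraries, quasi-likelihood tests and Benjamini-Hochberg adjustment across all genes. The median standard error under water was 0.104 on the log2 scale. Log2 ratios of related genes were tested by exact permutation within treatments. Symbols and positions came from GENCODE M21 (35247 genes matched) and promoters from RefSeq. Alternatives were DESeq2 1.42.0, its size factors, 2 count filters, an adjusted p under 0.05, robust fitting, fits on the compared groups, each library left out, and, added later, a length and GC correction. The edgeR and DESeq2 steps were tested on simulated data. The members and lists were chosen with earlier results of these data known. Beside the members, the genes named were up to 4 called genes of each list with the largest averaged learning change, or the gene of smallest p, and the 3 genes most correlated with each called member, of which 1 is not reported here.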

Additional observations from a re-analysis of the deposited data

Results flagged for a closer look

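Each of the 9 genes was checked in each group of 4 for a library far from the others, 36 checks in all, of which chance flags about 5%. Both libraries found belong to Sik2, and the number found is near that share. Home cage water replicate 20 had 17.6 CPM while the other 3 had 22.05 to 22.5, a gap of 0.901 of the group's range. That library also had the highest summed level of choroid plexus markers (2349 CPM). Learning caffeine replicate 27 had 24.6 CPM while the other 3 had 29.5 to 30.1, a gap of 0.887 of the range. The part of these libraries' makeup in the Sik2 values was not tested. Without single libraries the learning difference of Sik2 under water ranged from 0.29 to 0.42, never called, and under caffeine from 0.44 to 0.60, called in all 16 such fits.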

How the results depend on the processing

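No result changed direction past its threshold. Under water, 2 members (Sik1 and Sik2) instead of 1 were called with DESeq2's Wald test and with genes of 1 count or more in sum kept, and the cause was not tested. Leaving out single libraries gave 3 to 4 members in the averaged learning comparison, the fourth being Crtc1 without home cage water replicate 8. The 9 members gave 0 calls in every caffeine comparison under all alternatives. For Sik1 relative to Sik2, exchanging labels over all 16 libraries took the difference (0.296) past the threshold, and leaving out single libraries gave 0.230 to 0.356, past it without home cage water replicate 20 (0.333), home cage caffeine replicate 2 (0.345) or 17 (0.356), or learning caffeine replicate 22 (0.354). Crem relative to Creb1 ranged from -0.164 to -0.0943 and passed the threshold of 0.05 without home cage water replicate 8 (-0.164), home cage caffeine replicate 9 (-0.162) or learning caffeine replicate 22 (-0.158). Crtc1 relative to Crtc3 ranged from 0.114 to 0.170 and lost it without learning water replicate 33 (0.132) or learning caffeine replicate 27 (0.142) or 30 (0.132). Counts over all genes moved more than the members did. Under water they ran from 70 (adjusted p under 0.05) to 427 (DESeq2), and from 37 to 312 without single libraries. Under caffeine they ran from 449 to 1561, and from 382 to 1231. Averaged they ran from 1384 to 2990, and from 1783 to 3191. For caffeine they reached 34 in the home cage, 8 after learning and 36 averaged, and for the difference between responses 9, in each case by edgeR with genes of 1 count or more in sum kept. They were 19, 6, 16 and 6 by DESeq2, and 33 in the home cage without home cage water replicate 6. The edgeR test of the report gave 0 in all 4, where 636, 700, 725 and 648 of the 17830 genes tested had an unadjusted p under 0.05. No paired analysis was possible because the groups share no replicate numbers. Sik1, with 142 to 517 counts a library, is the member least well counted beside Atf1 (159 to 297).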
